A study of Mus musculus with 18 samples.

Results

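Immediate early genes and heat shock genes were followed in the dorsal skin of hairless mice: 42 named genes, of which 26 are immediate early and 16 are chaperone or heat shock genes. Probe sets were matched to genes by exact symbol in the platform annotation, and for a gene with several the brightest on average across all 18 arrays was used. Of the 42 genes, 39 had a probe set named for them alone and 3 (Cyr61, Hsp90ab1 and Hsf1) had none. In 8 genes (Fosb, Fosl1, Ier5, Klf6, Myc, Gadd45b, Hspa2 and Hspe1) the chosen probe set ranged by less than 0.01 log2 over all arrays and gave no information. Further probe sets of Klf6, Gadd45b and Hspe1 varied and are described outside the counts. The remaining 31 genes, 19 immediate early and 12 chaperone, are described here, out of 6842 genes on the array whose chosen probe set varied. All animals were males of HR-1, a hairless albino strain, labelled as 6 weeks old. NT skin was not stripped (n = 6). TS skin (n = 6) had been stripped on the left side with cellophane tape, 3 times weekly over 4 weeks, until water loss through the epidermis reached 70 to 100 g/m2/h. WB skin (n = 6) came from mice stripped in the same way and dosed orally with winged bean extract (200 mg/kg/day, dissolved in 0.3% carboxymethylcellulose) on 5 occasions a week over 5 weeks, the first of these weeks before stripping began. Whether NT and TS mice were given the vehicle is not stated in the labels.

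Immediate early genes are transcribed within minutes of a growth factor, wound or stress signal without new protein synthesis, through kinase cascades that act on factors already present in the cell. Their products include transcription factors of the AP-1 and EGR families, and feedback regulators that end the signal by dephosphorylating kinases or destabilising messenger RNA. Heat shock genes encode chaperones that fold or refold proteins. Many are switched on by the heat shock factor when unfolded protein accumulates, while others, such as Hspa8, are made constitutively. In epidermis both groups are known to respond to barrier injury.

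The promoters of 6 genes whose differences are described below are given for reference: Fos, Junb and Zfp36 for the immediate early genes that were higher in stripped skin, Hspa1a and Hspa1b for the inducible chaperones that were higher, and Hspb1 for a small heat shock protein that was lower. Each is the 250 bases before the gene start, from RefSeq on GRCm38.p6, written 5′ to 3′ on the gene's strand. Capitals mark TATAAA and TGACG in Fos, TGACG and CCAAT in Junb, the CArG box (bound by serum response factor) and GGGCGG in Zfp36, GAANNTTC, CCAAT and GGGCGG in Hspa1a and Hspa1b, and GAANNTTC and GGGCGG in Hspb1, each on either strand, and other matches are left in lower case.
Fos (chr12:85473640-85473889, plus strand): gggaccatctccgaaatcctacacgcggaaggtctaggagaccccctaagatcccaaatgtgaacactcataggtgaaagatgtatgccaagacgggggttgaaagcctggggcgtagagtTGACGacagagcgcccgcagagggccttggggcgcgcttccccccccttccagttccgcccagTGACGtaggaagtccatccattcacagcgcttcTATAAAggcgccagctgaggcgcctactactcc
Junb (chr8:84978749-84978998, minus strand): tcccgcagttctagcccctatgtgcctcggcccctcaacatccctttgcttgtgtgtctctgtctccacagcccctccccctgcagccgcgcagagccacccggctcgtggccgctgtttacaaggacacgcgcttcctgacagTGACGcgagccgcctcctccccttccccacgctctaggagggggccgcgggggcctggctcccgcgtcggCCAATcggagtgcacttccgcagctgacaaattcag
Zfp36 (chr7:28379229-28379478, minus strand): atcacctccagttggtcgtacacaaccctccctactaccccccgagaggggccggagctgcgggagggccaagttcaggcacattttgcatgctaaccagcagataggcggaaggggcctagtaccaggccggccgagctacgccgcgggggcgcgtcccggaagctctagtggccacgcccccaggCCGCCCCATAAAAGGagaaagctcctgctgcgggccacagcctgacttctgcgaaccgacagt
Hspa1a (chr17:34972157-34972406, minus strand): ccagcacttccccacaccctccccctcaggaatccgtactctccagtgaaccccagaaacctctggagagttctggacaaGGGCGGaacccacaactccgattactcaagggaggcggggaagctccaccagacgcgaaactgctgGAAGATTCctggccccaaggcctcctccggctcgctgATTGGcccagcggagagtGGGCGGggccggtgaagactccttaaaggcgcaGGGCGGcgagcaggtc
Hspa1b (chr17:34959239-34959488, minus strand): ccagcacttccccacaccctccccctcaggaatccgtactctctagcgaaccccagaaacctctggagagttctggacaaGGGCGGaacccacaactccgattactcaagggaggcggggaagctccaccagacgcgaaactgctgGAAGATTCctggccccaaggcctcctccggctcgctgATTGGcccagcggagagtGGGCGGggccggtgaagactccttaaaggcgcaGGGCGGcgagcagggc
Hspb1 (chr5:135887669-135887918, plus strand): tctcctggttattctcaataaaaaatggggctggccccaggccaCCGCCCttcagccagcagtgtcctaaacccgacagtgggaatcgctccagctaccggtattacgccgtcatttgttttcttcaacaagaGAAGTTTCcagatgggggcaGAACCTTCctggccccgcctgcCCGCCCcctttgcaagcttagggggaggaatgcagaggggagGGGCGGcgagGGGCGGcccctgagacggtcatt
In Zfp36 the CArG box and the GC box overlap by their ends. GAANNTTC is 2 facing units of the heat shock element, and TGACG is the core of the cyclic AMP response element. GAANNTTC lay in 6 of 12 chaperone genes found in the promoter table (Hspa1a, Hspa1b, Hspb1, Hspd1, Hspe1 and Dnaja1) and in 2 of 20 immediate early genes (Fosl2 and Jun), against 6.69% of all 32851 promoters of this length. The longer element, GAANNTTC followed after NN by GAA, lay in Hspd1 and Hspe1 and in 0.466% of all promoters. These 2 genes are transcribed away from each other, so their windows may share sequence. TGACG lay in 9 of 20 immediate early and 6 of 12 chaperone genes, against 17.8% of all promoters, and GGGCGG in 17 of 20 and 12 of 12, against 32.7%. Within these 250 bases the CArG box lay in 2 of 20 immediate early genes (Egr2 and Zfp36) and in 1.47% of all promoters. Sites farther upstream were not searched, so a missing match does not mean that the gene lacks the site. Hspa1a and Hspa1b, neighbouring copies on chromosome 17, were identical at 247 of 250 aligned promoter bases. The 6 chaperone genes with GAANNTTC are therefore not 6 separate sequences. A match is a description of letters, not of a bound site.

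The values are deposited log2 values per probe set, so a difference of 1 is a factor of 2 if the logarithm has base 2, which the sources used here do not state. Array medians lay between 6.90 and 6.95. The epidermal markers Krt5, Krt14, Krt1, Krt10 and 10 others were all measured, and their mean over the 14 markers was 11.37 ± 0.21 (SD, n = 6) in NT, 11.93 ± 0.13 in TS and 11.18 ± 0.16 in WB. The control probe sets at the 3′ and 5′ ends of beta-actin differed by -0.51 ± 0.10 in NT, 0.16 ± 0.07 in TS and 5.69 ± 0.25 in WB, and those of Gapdh by -0.59 ± 0.11, -0.44 ± 0.115 and 3.70 ± 0.36. The 6 WB arrays stood apart from all others in both differences (exact permutation test, two-sided, WB against TS, p = 0.00216 for each control, adjusted 0.00269 over 36 array comparisons, the smallest p that 6 against 6 arrays allow being 0.00216). On NT 5 the mean of 10 liver markers was 14.27, against 7.26 to 7.47 on TS arrays. Calls of every member in TS against NT were repeated without NT 5, and where the call changed the value is given. In whole skin, fewer cells of a type and less RNA per cell cannot be told apart. The labels call the samples biological replicates and give no litter or batch.

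Stripped and unstripped skin were compared first. In stripped skin Fos, Zfp36, Junb and Klf4 had the largest rises among the immediate early genes, Fos with a wide error, and Hspa1b and Hspa1a among the chaperones, while the phosphatase gene Dusp6, the small heat shock gene Hspb1 and the co-chaperone gene Dnaja1 fell. Of 19 immediate early genes 7 rose and 1 fell, against 19.3% higher and 21.1% lower of all 6842 varying genes. The median difference of the 19 was 0.30, and that of all varying genes 0.00. Of 12 chaperone genes 3 rose and 2 fell, with a median difference of 0.19. The actin 3′ minus 5′ difference also separated all TS from all NT arrays, by 0.66 (exact permutation test, two-sided, p = 0.00216, adjusted 0.00269), and that of Gapdh differed by 0.15 (p = 0.0476, adjusted 0.0536). Their part in the values of TS against NT was not tested. A gene is said to rise or fall where the limma adjusted p over 45037 probe sets was under 0.05 and the difference at least 0.01.

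**Figure D1:**
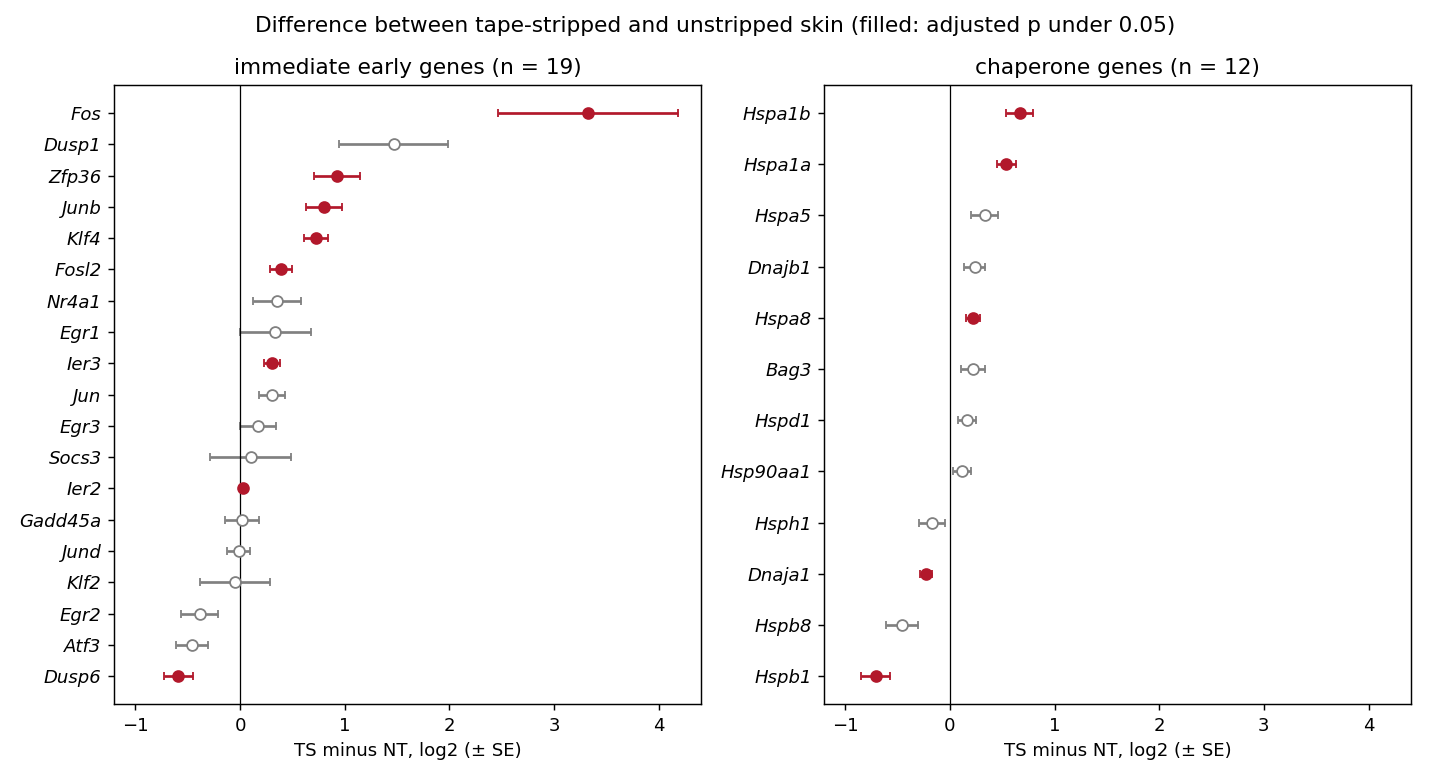
Difference between TS and NT on the log2 scale for each of 19 immediate early genes (left) and 12 chaperone genes (right), with the standard error of the limma fit (n = 6 arrays per group); filled points passed at adjusted p under 0.05. Fos lies farthest to the right at 3.32 with the widest error, and Hspb1 farthest to the left among chaperones at -0.71.

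Fos encodes a subunit of AP-1, a dimer of Fos and Jun family proteins. Its values in NT had a lowest of 6.77, a median of 8.52 and a highest of 10.77, in TS 10.65, 11.73 and 13.29, and in WB 10.02, 12.60 and 14.40. The NT and TS ranges met at NT 3 and TS 2, and NT 1 lay below the median of its array. Fos rose by 3.32 (SE 0.86, adjusted p = 0.0137), the largest rise of any member. Junb, which encodes a Jun family subunit abundant in epidermis, was at 8.50, 8.70 and 8.99 in NT (lowest, median, highest) and at 9.08, 9.48 and 9.85 in TS. All 6 TS arrays lay above all 6 NT arrays, and Junb rose by 0.81 (SE 0.17, adjusted p = 0.00393), a factor of 1.75. Fosl2, a Fos relative, rose by 0.39 (SE 0.10, adjusted p = 0.0178) from 9.39 ± 0.22 to 9.78 ± 0.17, with overlapping groups.

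The other AP-1 members did not pass. Jun differed by 0.30 (SE 0.13, adjusted p = 0.134), but passed without TS 5 (difference 0.39, adjusted p = 0.0321). Jund, at 10.61 ± 0.24 and 10.59 ± 0.15, differed by -0.01. The zinc finger factors of the EGR family, which share a binding site and follow the same signals as Fos, did not pass either: Egr1 differed by 0.34 (SE 0.34), Egr2 by -0.39 (SE 0.18) and Egr3 by 0.17 (SE 0.17). The stress factor Atf3 differed by -0.46 (SE 0.15, adjusted p = 0.0556) and passed as a fall without NT 1 (adjusted p = 0.0154), TS 4 (0.0406), TS 6 (0.0342) or WB 4 (0.0404). Thus Fos, Fosl2 and Junb passed upward while Jun, Jund and the 3 EGR genes did not. Beside these values, 10 of 14 keratinocyte markers rose and 1 fell, while of the myeloid markers 1 rose and 7 fell of 10, of the fibroblast markers 3 of 9 fell, of the T cell markers both that varied fell, and of the endothelial markers 3 of 5 rose. None of the 4 neutrophil markers that varied passed. The part of these markers in the immediate early values was not tested.

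**Figure D2:**
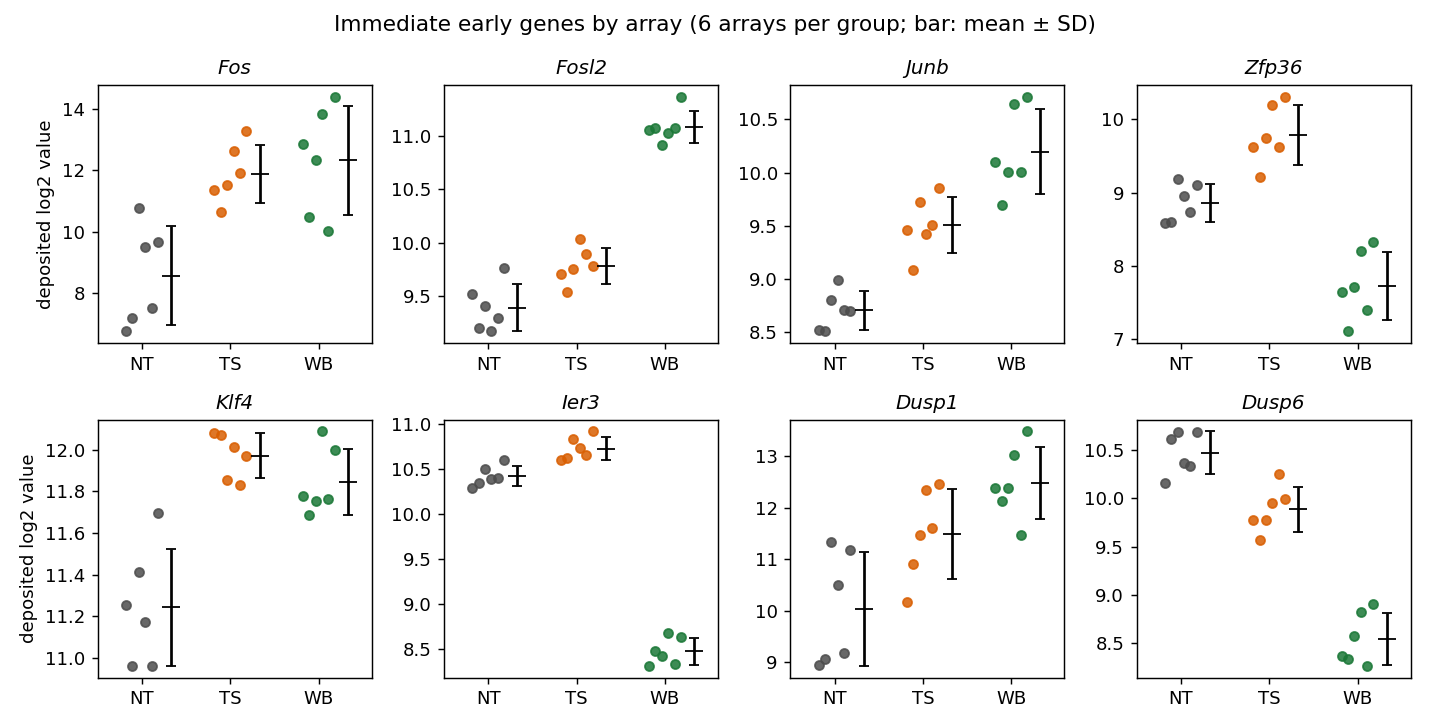
Deposited log2 values of 8 immediate early genes on each array, with the mean and SD of each group (n = 6) beside the points; the vertical axes differ between panels and do not start at 0. Junb, Zfp36 and Klf4 have all TS points above all NT points, and Fos and Dusp1 spread by several log2 units within each group.

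Among genes that end the signal, Zfp36 and Dusp6 moved in opposite directions. Zfp36 encodes tristetraprolin, which speeds the decay of inflammatory and immediate early messenger RNAs. Its values were 8.59, 8.84 and 9.18 in NT (lowest, median, highest) and 9.21, 9.68 and 10.31 in TS, with no overlap, and it rose by 0.92 (SE 0.22, adjusted p = 0.00891). Dusp6, a phosphatase of the ERK kinases, was at 10.16, 10.49 and 10.69 in NT and at 9.56, 9.86 and 10.25 in TS and fell by 0.59 (SE 0.14, adjusted p = 0.00837). TS 5 lay above the lowest NT array. Dusp1, a phosphatase of the stress kinases, was at 8.93, 9.84 and 11.33 in NT and at 10.16, 11.54 and 12.47 in TS. Its difference of 1.47 (SE 0.52) did not pass (adjusted p = 0.0742), but did without NT 3 (0.0379), NT 6 (0.0445) or TS 1 (0.0360). Socs3, an inhibitor of cytokine receptor kinases, differed by 0.10 (SE 0.39, adjusted p = 1.00).

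Klf4, a transcription factor needed for the epidermal barrier, was at 10.96, 11.21 and 11.70 in NT (lowest, median, highest) and at 11.83, 11.99 and 12.08 in TS. The groups did not overlap, and Klf4 rose by 0.73 (SE 0.11, adjusted p = 0.000381), while a further probe set rose by 0.90 (SE 0.14). Its values in stripped skin of both kinds lay close together (WB 11.69, 11.77 and 12.09). Ier3, a regulator of cell survival, rose by 0.31 (SE 0.08, adjusted p = 0.0106) from 10.42 ± 0.11 to 10.73 ± 0.13. Ier2 passed at a difference of 0.03 (SE 0.01, adjusted p = 0.00821), which is close to the smallest difference counted, and did not pass when varying probe sets alone were tested (adjusted p = 0.292). The orphan receptor gene Nr4a1 (0.36, SE 0.23), Klf2, a factor of blood vessel and lymphocyte cells (-0.05, SE 0.34), and the growth arrest gene Gadd45a (0.02, SE 0.16) did not pass. Outside the count, 1 further probe set of Gadd45b rose by 0.50 (SE 0.14, adjusted p = 0.0193), and the 3 varying probe sets of Klf6 differed by -0.23, 0.02 and 0.00 without passing. Cyr61 is listed under its current symbol Ccn1, a matricellular growth factor, whose brightest probe set was at 8.46 ± 0.56 in NT and 8.46 ± 0.64 in TS.

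The chaperones that rose were HSP70 genes. Hspa1a and Hspa1b encode the stress-inducible HSP70, and since the copies are nearly identical in sequence their probe sets may read both. Hspa1a was at 8.74, 8.92 and 9.32 in NT (lowest, median, highest) and at 9.26, 9.50 and 9.71 in TS, and rose by 0.54 (SE 0.09, adjusted p = 0.000715), with NT 6 inside the TS range. Hspa1b was at 10.73, 11.21 and 11.74 in NT and at 11.58, 11.93 and 12.09 in TS and rose by 0.67 (SE 0.13, adjusted p = 0.00217). The other 2 probe sets of Hspa1b rose by 0.69 (SE 0.17) and 0.84 (SE 0.22). Hspa8, the constitutive HSP70, rose by 0.22 (SE 0.06, adjusted p = 0.0267) from 12.10 ± 0.05 to 12.32 ± 0.16. That call was lost without NT 1, NT 2, NT 5 or TS 2 (adjusted p = 0.0543, 0.0521, 0.0550 and 0.0577) and when all WB arrays were left out (0.0580). Of the other 3 probe sets of Hspa8, those at 0.36 (SE 0.06) and 0.71 (SE 0.10) passed and that at 0.31 (SE 0.15) did not. The probe set at 0.71 lay at 6.60 to 6.85 in NT, under the array medians, and signal over background was not measured there.

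**Figure D3:**
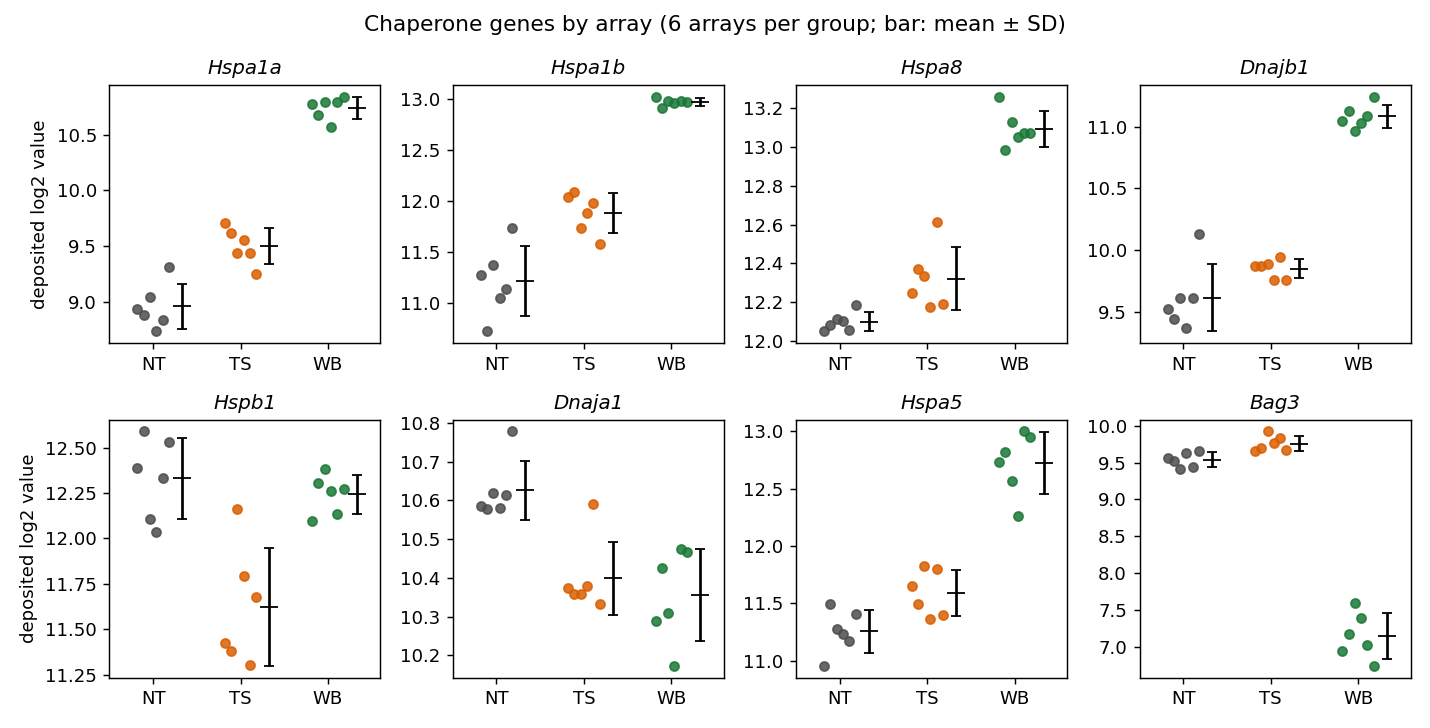
Deposited log2 values of 8 chaperone genes on each array, with the mean and SD of each group (n = 6) beside the points; the vertical axes differ between panels and do not start at 0. Hspa1a and Hspa1b are higher in TS than in NT with NT 6 the highest NT array, and Hspb1 and Dnaja1 are lower in TS.

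Hspb1 and Dnaja1 fell. Hspb1, the small heat shock protein HSP27 of differentiating keratinocytes and muscle, was at 12.04, 12.36 and 12.59 in NT (lowest, median, highest) and at 11.30, 11.55 and 12.16 in TS. It fell by 0.71 (SE 0.14, adjusted p = 0.00184), with TS 3 inside the NT range, and its other probe set fell by 0.64 (SE 0.15). Dnaja1, an HSP40 partner of HSP70, fell by 0.23 (SE 0.06, adjusted p = 0.0117), and its other 2 probe sets fell by 0.64 (SE 0.06) and 0.70 (SE 0.09). Hspb8, a partner of Bag3, differed by -0.46 (SE 0.15, adjusted p = 0.0550) and passed as a fall without NT 4 (0.0386), TS 3 (0.0287), TS 4 (0.0361) or WB 6 (0.0348). Of its other probe sets, that at -0.52 (SE 0.14, adjusted p = 0.0170) passed on all arrays and that at -0.29 (SE 0.11, adjusted p = 0.110) did not. Beside these falls the mean of 16 skeletal muscle markers was 12.16 to 13.55 on NT arrays and 10.52 to 10.96 on TS arrays, with 13 of 16 markers fallen and none risen, and that of 9 adipocyte markers was 10.45 to 11.16 and 9.27 to 9.83, with 7 fallen. Their part in the falls of Hspb1 and Dnaja1 was not tested.

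The remaining chaperones did not pass. Dnajb1, the stress-inducible HSP40, differed by 0.24 (SE 0.10, adjusted p = 0.136), but by 0.34 without NT 6, where it passed (adjusted p = 0.000806), and its other probe set rose by 0.62 (SE 0.15, adjusted p = 0.0107). Bag3, a co-chaperone of HSP70 in protein clearance, was at 9.42 to 9.65 in NT and at 9.66 to 9.92 in TS. These ranges did not overlap, yet its difference of 0.22 (SE 0.11, adjusted p = 0.259) missed the threshold when all 3 groups were fitted together and passed when WB arrays were left out (adjusted p = 0.0303). The endoplasmic reticulum HSP70 Hspa5 differed by 0.33 (SE 0.13, adjusted p = 0.103). It passed when varying probe sets alone were tested (0.0368) or with arrays weighted by their quality (0.0459). The mitochondrial HSP60 Hspd1 differed by 0.17 (SE 0.09), Hsp90aa1, the inducible HSP90, by 0.12 (SE 0.09), and Hsph1, the exchange factor HSP110, by -0.17 (SE 0.12). The varying probe set of Hspe1, outside the count, differed by 0.21 (SE 0.08, adjusted p = 0.0741) without passing.

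Lists of genes of the same pathways, chosen without regard to their direction but with earlier results of these data known, gave counts that are read against the same 19.3% higher and 21.1% lower of all varying genes. The endoplasmic reticulum list includes the member Hspa5 and the upstream list the member Hsf1, and the lists share some genes with each other. Of 50 other immediate early genes 34 varied, of which 5 rose and 3 fell with a median of 0.11. The epidermal and gut factor Klf5 rose by 1.09 (SE 0.16, adjusted p = 0.000283), while Id2 (-0.73, SE 0.08), Id3 (-0.80, SE 0.12), both inhibitors of basic helix-loop-helix factors, and the interferon factor Irf1 (-0.50, SE 0.07) fell. Of 51 other chaperone genes 36 varied, of which 9 rose and 6 fell with a median of 0.02. The falls included the small heat shock genes Hspb3 (from 7.57 ± 0.25 to 6.57 ± 0.01), Hspb6 (-1.23, SE 0.17) and Cryab (-1.91, SE 0.23), all known for high levels in muscle, and the HSP70 cofactor St13 (-0.35, SE 0.04). Of 22 genes of the endoplasmic reticulum stress response 17 varied, of which 2 rose and 1 fell with a median of -0.05. The amino acid response factor Atf4 rose by 0.57 (SE 0.08, adjusted p = 0.000132), its target Trib3 rose by 0.56 (SE 0.10) and Sdf2l1 fell by 0.38 (SE 0.09). Of 25 upstream kinases, growth factors and factors 8 varied, of which 1 rose and 0 fell with a median of 0.01. The EGF receptor ligand gene Ereg rose (adjusted p = 1.33e-07). It stood at 10.80 ± 0.32 in TS and at 6.75 ± 0.66, under the array median, in NT, and no size is given for its rise because signal over background was not measured there.

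Immediate early genes varied more between mice of 1 group than chaperones did, and the same arrays tended to be high in many of them. The median within-group SD of the 19 immediate early genes was 0.26 in NT, 0.31 in TS and 0.25 in WB, against 0.16, 0.20 and 0.12 for the 12 chaperones and 0.10, 0.13 and 0.12 for all varying genes. Among NT arrays, NT 6 was 1 of the 2 highest in 14 of 19 immediate early genes and NT 3 in 12. Among TS arrays, TS 6 was so in 14 and TS 4 in 12, and among WB arrays WB 6 and WB 4 in 16 each. NT 1 was the lowest NT array in 10 of 19, TS 2 the lowest TS array in 9 and WB 2 the lowest WB array in 7. The mean over the 19 genes was highest on array 6 of each group (9.83 in NT, 10.23 in TS and 10.47 in WB). Fos, Egr1, Dusp1 and Zfp36 shared this order in TS and WB, where arrays 4 and 6 were the 2 highest of each group for all 4 genes. Chaperones had another order in TS. TS 5 was 1 of the 2 highest in 8 of 12 chaperones and TS 3 in 6, while TS 6 was so in 0 and was the lowest TS array in 5. In NT, NT 6 was 1 of the 2 highest in all 12 chaperones. These are counts over genes of the same arrays, not independent tests. The same counts over all varying genes are not given, so the order is not read as particular to either class of genes.

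**Figure D4:**
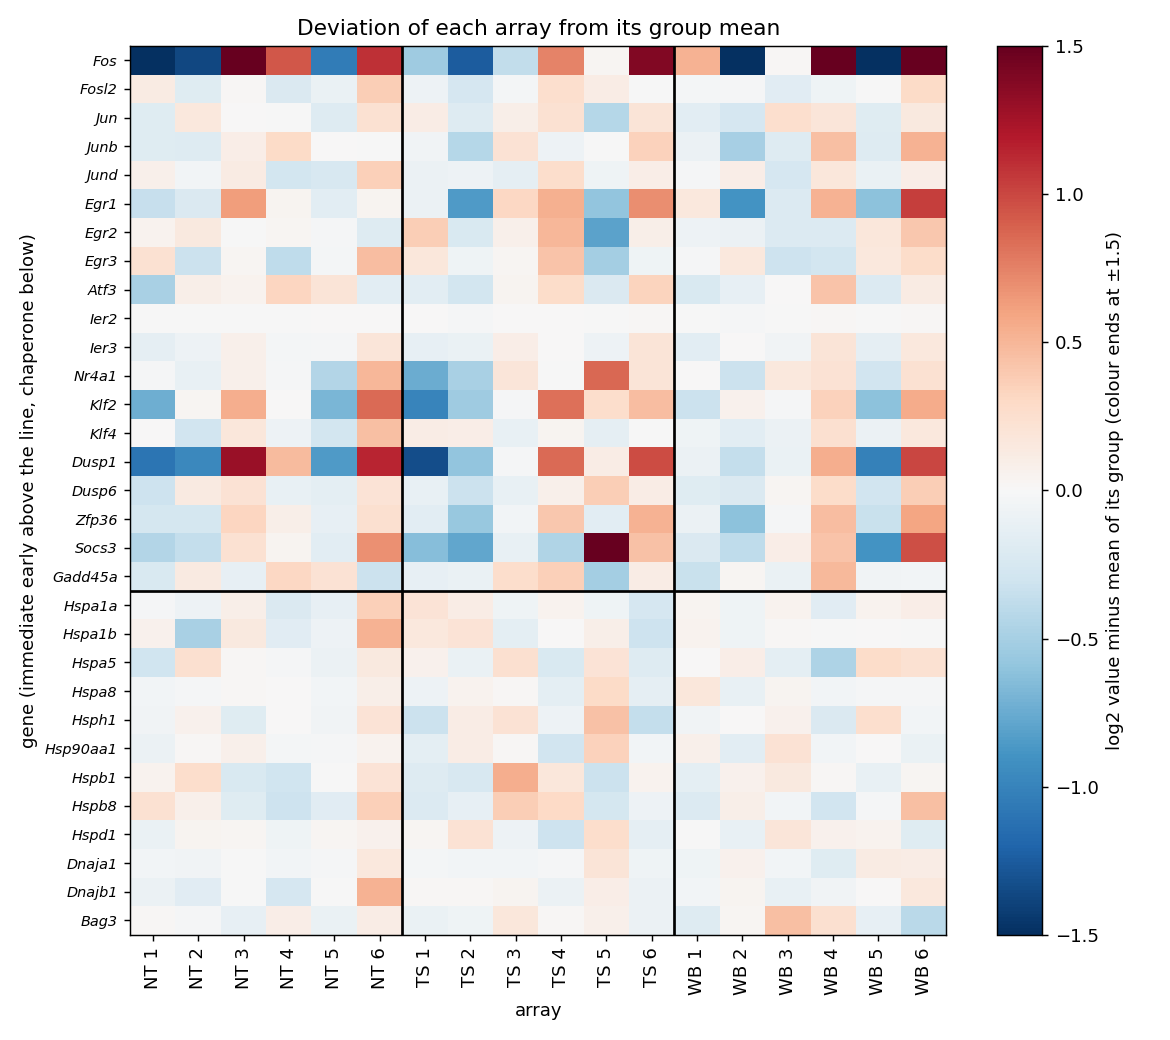
Log2 value of each array minus the mean of its group for 19 immediate early genes (above the horizontal line) and 12 chaperone genes (below it), with groups separated by vertical lines; colours end at 1.5 above or below the mean. Red columns at NT 3, NT 6, TS 4, TS 6, WB 4 and WB 6 run through many immediate early genes, and chaperone rows are paler.

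WB and TS skin were both stripped and differed in the extract. On the probe sets used, WB arrays had higher values of most chaperones and of Fosl2, Junb, Egr2 and Egr3, and lower values of Ier3, Zfp36, Dusp6, Bag3 and Hspb8. Probe sets of the same gene often disagreed. Of 9 chaperone genes with 2 or more varying probe sets, 7 (Hspa5, Hspa8, Hsph1, Hsp90aa1, Hspb8, Dnaja1 and Dnajb1) had 1 that passed upward and 1 that passed downward, and so did 44.9% of all 2191 such genes, while in TS against NT it was none of the 9 and 1.51% of all. Of the 4 such immediate early genes, Klf6 was called both ways. WB exceeded TS by 5.53 in the 3′ minus 5′ difference of actin, and by 4.14 in that of Gapdh. All 9 cell type marker means were lower in WB than in TS, the differences being -0.30 for liver, -0.75 for keratinocyte, -0.85 for T cell, -1.03 for neutrophil, -1.11 for fibroblast, -1.204 for adipocyte, -1.33 for endothelium, -1.65 for myeloid and -2.58 for skeletal muscle markers. Of 14 keratinocyte markers 3 were called higher and 6 lower, and of 10 liver markers 1 and 1. Of 10 myeloid markers 2 were higher and 8 lower, and of 9 adipocyte markers 2 and 6. Of 9 fibroblast markers 1 was higher and 6 lower, and of 16 muscle markers 1 and 11. Of 5 endothelial, 4 neutrophil and 2 T cell markers 0 were higher and 5, 2 and 2 lower. The part of each of these measures in the values below was not tested. For the 7 chaperone genes and Klf6 the direction depends on the probe set, and the values are given as those of probe sets. In WB minus TS, Dnaja1 had -0.04 (SE 0.06) on the probe set used and -0.73 (SE 0.06) and 0.60 (SE 0.09) on the others. The probe sets of Klf6 had 1.00 (SE 0.19), -1.24 (SE 0.30) and 0.94 (SE 0.20). Also outside the counts, the varying probe set of Gadd45b had 1.25 (SE 0.14) and that of Hspe1 -2.74 (SE 0.08). Hspe1 was at 6.69 to 6.99 in WB, close to the array medians, and signal over background was not measured there.

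**Figure D5:**
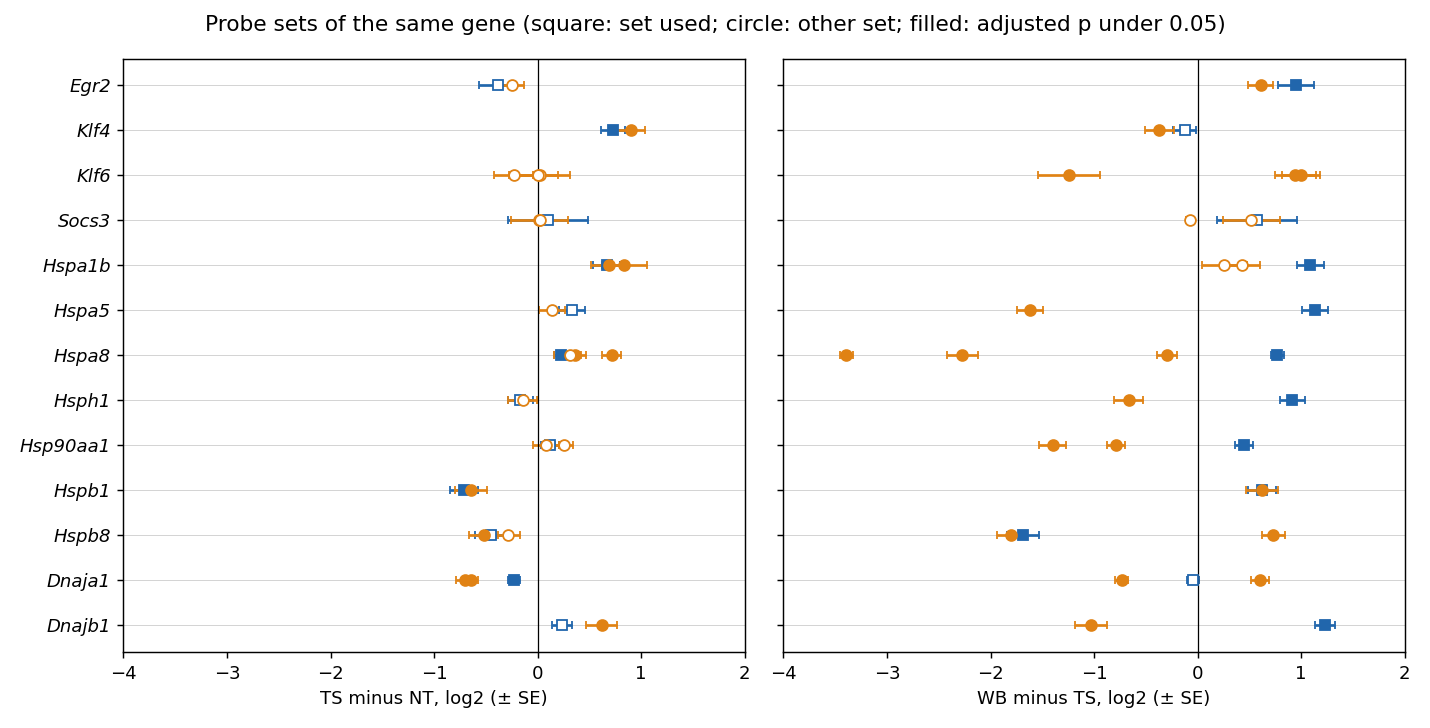
Differences of every varying probe set of the 13 genes that have 2 or more, in TS minus NT (left) and WB minus TS (right), with standard errors; squares are the probe sets used (Klf6 has none that varied), circles the others, and filled symbols passed at adjusted p under 0.05. On the left the probe sets of a gene lie on the same side of 0 or close to it, and on the right those of Hspa8 run from -3.39 to 0.77.

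Of 19 immediate early genes 6 were called higher and 4 lower in WB than in TS, against 48.4% and 39.2% of all varying genes. Fosl2 was at 9.54, 9.76 and 10.03 in TS (lowest, median, highest) and at 10.91, 11.06 and 11.36 in WB, a difference of 1.30 (SE 0.10, adjusted p = 2.75e-08). Junb, with 9.70, 10.05 and 10.72 in WB, was higher by 0.69 (SE 0.17, adjusted p = 0.00322), with overlapping groups. Egr2 was at 8.62, 9.50 and 9.91 in TS and at 10.16, 10.29 and 10.77 in WB, and its other probe set was also higher (0.95, SE 0.18, and 0.61, SE 0.12). Egr3, at 10.18, 10.67 and 11.11 in TS and at 11.27, 11.66 and 11.87 in WB, was higher by 0.90 (SE 0.17), and Jund, at 10.46, 10.52 and 10.85 and at 10.90, 11.20 and 11.33, by 0.56 (SE 0.11). Neither gene's groups overlapped, and each had no second varying probe set. Gadd45a passed at 0.48 (SE 0.16, adjusted p = 0.0237), but not without TS 5 (0.0562) or WB 4 (0.0573), nor with arrays weighted by their quality (0.0616).

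Ier3 was at 10.60, 10.69 and 10.92 in TS and at 8.31, 8.45 and 8.68 in WB, lower in WB (-2.25, SE 0.08, adjusted p = 4.92e-13). Zfp36 was at 7.11, 7.68 and 8.32 in WB, below every TS and every NT array (WB minus TS -2.05, SE 0.22; WB minus NT -1.13, SE 0.22). Dusp6 was at 8.27, 8.47 and 8.91 in WB, also below every array of both other groups (WB minus TS -1.34, SE 0.14). Each of these 3 genes had 1 varying probe set, so no further probe set could show whether the direction holds along the transcript. Nr4a1 was at 8.34, 9.17 and 9.95 in TS and at 8.09, 8.49 and 8.64 in WB (-0.68, SE 0.23, adjusted p = 0.0229), and did not pass without WB 2 (0.0521) or WB 5 (0.0512), or without the NT arrays (0.05 after rounding). Fos (0.43, SE 0.86, adjusted p = 0.818), Egr1 (0.54, SE 0.34), Dusp1 (0.99, SE 0.52) and Klf4 (-0.13, SE 0.11) did not pass, although the other probe set of Klf4 did (-0.37, SE 0.14, adjusted p = 0.0378). Klf2 (0.78, SE 0.34, adjusted p = 0.0732) passed without TS 4 (0.0323) or WB 5 (0.0484), and Socs3 (0.57, SE 0.39, adjusted p = 0.272) without TS 5 (0.0360).

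Of 12 chaperones 8 were called higher and 3 lower on the probe sets used, against the same 48.4% and 39.2%. WB arrays took part in choosing the brightest probe set, of members and of all varying genes alike, which favours probe sets high in WB. With the mean of a gene's varying probe sets in place of the brightest, 3 chaperones were higher and 5 lower. Hspa8 was at 12.18, 12.29 and 12.61 in TS and at 12.98, 13.07 and 13.26 in WB on the probe set used (0.77, SE 0.06), while its other 3 probe sets passed downward at -0.29 (SE 0.10), -2.27 (SE 0.15) and -3.39 (SE 0.06). Taking the probe set with the highest mean over NT and TS arrays, a choice made after seeing the data, turned Hspa8 to -3.39. With this choice 7 chaperones were higher and 4 lower. For neither of these settings is a share of all varying genes given, so their counts are not read as results about chaperones. Hspa5, at 11.36, 11.58 and 11.83 in TS and at 12.27, 12.77 and 13.00 in WB, was higher by 1.13 (SE 0.13) on 1 probe set and stood at -1.62 (SE 0.12) on another. Dnajb1, at 9.76, 9.87 and 9.95 in TS and at 10.97, 11.06 and 11.24 in WB, had 1.23 (SE 0.10) and -1.03 (SE 0.15). Hsph1, at 8.41, 8.78 and 9.20 in TS and at 9.46, 9.66 and 9.94 in WB, had 0.91 (SE 0.12) and -0.66 (SE 0.14). Hsp90aa1 had 0.45 (SE 0.09), -0.79 (SE 0.09) and -1.40 (SE 0.13). Hspb8 was at 9.27, 9.43 and 9.91 in TS and at 7.56, 7.82 and 8.30 in WB (-1.69, SE 0.15), with other probe sets at -1.80 (SE 0.14) and 0.73 (SE 0.11). The probe set at -1.80 lay at 6.40 to 6.85 in WB, under the array medians, and signal over background was not measured there.

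Among chaperones whose probe sets did not oppose each other, Hspa1b was at 11.58, 11.93 and 12.09 in TS and at 12.91, 12.98 and 13.03 in WB, higher by 1.09 (SE 0.13, adjusted p = 3.05e-06), and its other probe sets differed by 0.42 (SE 0.17) and 0.26 (SE 0.22) without passing. Hspa1a, with 1 probe set, was at 10.56, 10.78 and 10.83 in WB, higher by 1.23 (SE 0.09, adjusted p = 9.99e-09). Hspb1 was at 12.10, 12.27 and 12.38 in WB, higher than in TS by 0.62 (SE 0.14) and by 0.62 (SE 0.15) on its other probe set, and within the NT range. Bag3 was at 6.74, 7.10 and 7.60 in WB, against 9.66, 9.73 and 9.92 in TS (-2.61, SE 0.11), and has no second probe set that varied. WB 6 lay under its array median of 6.90 for Bag3, and signal over background was not measured there. Hspd1 passed at -0.25 (SE 0.09, adjusted p = 0.0256), but not without TS 2 (0.0633), TS 5 (0.0613), WB 2 (0.0558) or WB 6 (0.0619), nor without the NT arrays (0.0749) or under quantile normalization (-0.14, adjusted p = 0.115).

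WB was also set against NT, and this comparison shares its arrays with both others. Of the 19 immediate early genes 12 were called higher and 4 lower, against 46.9% and 41.3% of all varying genes. Of the 12 chaperones 7 were called higher and 3 lower, and 6 and 4 with the probe set brightest over NT and TS arrays. The shares of all genes hold for the probe sets used, not for that choice. Of the 9 chaperone genes with 2 or more varying probe sets 6 were called both ways, as were 40.1% of all such genes. Fos stood at 12.33 ± 1.77 in WB against 8.58 ± 1.62 in NT (3.75, SE 0.86, adjusted p = 0.00160), and Dusp1 at 12.48 ± 0.70 against 10.03 ± 1.10 (2.45, SE 0.52, adjusted p = 0.000905), with no overlap for Dusp1. Egr1 passed at 0.88 (SE 0.34, adjusted p = 0.0419), and lost the call in 10 of 18 fits that left out 1 array (any NT array but NT 3, TS 1, WB 1, WB 3, WB 4 or WB 6), with adjusted p from 0.0506 to 0.102. Jun passed at 0.38 (SE 0.13, adjusted p = 0.0205) and lost it without WB 3 (0.0504). Atf3 was lower in WB than in NT (-0.68, SE 0.15, adjusted p = 0.00144), and Klf4 was higher (0.60, SE 0.11, adjusted p = 0.000303).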

How the data were processed

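Per the labels' protocols, dorsal skin RNA was isolated with Isogen and an RNeasy fibrous tissue kit, and 100 ng was labelled. The authors deposited 1 log2 value per probe set and array for 18 arrays. The summarising and normalizing method and the base of the logarithm are not given in the sources used here, and the log2 scale was read from the values (2.93 to 19.04). Of 45101 probe sets, 64 controls were left out. Of the 45037 tested, 33091 ranged by less than 0.01. No background measure was used, and the number of arrays limits the precision.

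All 18 arrays entered 1 fit with no covariate (R 4.3.3, limma 3.58.1, functions lmFit and eBayes; tests two-sided), with Benjamini-Hochberg adjustment over all 45037 probe sets per comparison. SE is that of the moderated fit. Array measures were compared by exact permutation. The fit was tested on simulated data. Values are given in full for members that passed in TS against NT or WB against TS with a difference of at least 0.5; Dusp1 was added after its values were seen. From each further list the 4 genes with the smallest adjusted p in TS against NT that passed are named. Members and lists were chosen with earlier results of these data known. Alternatives were quantile normalization, median centring, a filter on dim probe sets, varying probe sets alone, the replicate block, array weights, 12 arrays, probe set means and leaving out each array.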

Additional observations from a re-analysis of the deposited data

Results flagged for a closer look

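In 5 of 99 groups of 6 arrays tested (31 members and the actin and Gapdh control differences, in 3 groups each) 1 array stood far from the other 5, which is 5.05%, and chance flags about 5%. WB 6 was at 11.36 for Fosl2, with the other WB arrays at 10.91 to 11.07. NT 6 was at 10.78 for Dnaja1, with the others at 10.58 to 10.62, and at 10.13 for Dnajb1, with the others at 9.37 to 9.61. TS 5 was at 10.59 for Dnaja1, with the others at 10.33 to 10.38. WB 2 had a Gapdh 3′ minus 5′ difference of 4.41, with the others at 3.45 to 3.71.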

How the results depend on the processing

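Of 2511 member values recomputed under 27 alternatives, 18 of which left out 1 array, 2416 kept direction and side of the threshold, 37 lost the call, 47 gained it and 11 reversed. The count of immediate early genes lower in TS than NT was 2 in place of 1, Atf3 being added, under array weights, the filter on dim probe sets, the mean of varying probe sets, varying probe sets alone and the replicate block. Leaving out 1 array gave 1 to 2 lower and 7 to 8 higher, and 2 to 4 chaperones higher and 2 to 3 lower. With varying probe sets alone, Jun (adjusted p = 0.0496), Dusp1 (0.0231), Atf3 (0.0171), Hspa5 (0.0368) and Hspb8 (0.0169) gained the call in TS against NT. Ier2 (0.292) lost it. With the mean of varying probe sets, chaperones counted 3 higher and 5 lower in WB against TS, and 3 higher and 5 lower in WB against NT (main 7 and 3). No share of all genes is given beside these counts. That setting also gave, in WB against TS, Hspa5 -0.24, Hspa8 -1.30, Hsp90aa1 -0.58, Id2 -0.88, St13 -0.34 and Cryab -1.49, and in WB against NT, Hspa8 -0.90, Hsph1 -0.030, Hsp90aa1 -0.43, St13 -0.56 and Klf5 0.43. The setting averages all varying probe sets of a gene, and those of Hspa5, Hspa8, Hsph1 and Hsp90aa1 differed in sign in both comparisons.

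Taking the probe set with the highest mean over NT and TS arrays, chosen after seeing the data, gave Hspa8 -3.39 and Atf4 -1.89 in WB against TS, and -3.04 and -1.56 in WB against NT. It replaced the probe set of Trib3 by a nearly constant one. Ier2 in WB against TS became 0.029 under median centring and 0.073 under quantile normalization, and Hspb1 in WB against NT became 0.31 under the latter, whose shift of the median of all varying genes was 0.101 in WB against TS and 0.117 in WB against NT. The cause of these was not tested.

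Over all varying probe sets, same-numbered arrays of different groups correlated at -0.268 to 0.138 in their deviations, over 0.1 in 4 of 18 pairs. Of 18 arrays 1 correlated best with its own number in both other groups, so the number was not taken as a pairing. That check was not run on the members alone, and the mean over the 19 immediate early genes was highest on array 6 of each group. Whether these genes share an order of array numbers between groups was not tested. With the replicate number as a block, TS against NT had 8 immediate early genes higher and 2 lower and 2 chaperones higher: Dusp1 (adjusted p = 0.0128) and Atf3 (0.0206) gained the call and Hspa8 (0.0672) lost it. In WB against TS the block added Dusp1 (0.0282) and Klf2 (0.0184), and in WB against NT Klf2 (0.0244). The number of arrays, an unstated normalization and the 3′ signal of the WB arrays limit these results, and no measure of signal over background was used.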
